A study of Mus musculus with 2 samples.

Results

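Fibroblasts with high transcript levels of Cdkn1a, the gene of the cell cycle inhibitor p21, and of Phlda3 were examined in lungs of bleomycin-injured mice. The cells were chosen from the counts of single barcodes. A barcode was kept as a fibroblast with at least 500 genes, at most 15% mitochondrial UMIs (unique molecular identifiers, each standing for 1 captured transcript), at least 5 UMIs of Col1a1, Col1a2 and Col3a1 together, at most 1 Epcam UMI, under 2 Cthrc1 UMIs and under 5 UMIs of Msln, Upk3b and Lrrn4 together per 10000. Of these, cells with at least 10 UMIs of Cdkn1a and Phlda3 together per 10000 UMIs are called the high fibroblasts, and the rest the other fibroblasts. The high fibroblasts numbered 976 of 16848 barcodes in all, beside 5210 other fibroblasts, with 470 of 2810 gated fibroblasts in the navitoclax library and 506 of 3376 in the vehicle library.

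The series compared mice given navitoclax with mice given vehicle, each as 1 library of lung cells. C57Bl6 mice received bleomycin, a drug that injures the lung and leads to fibrosis, on day 1, and then navitoclax from day 15 to day 20, or vehicle. Lungs were collected 21 days after the injury, epithelial and stromal cells were isolated by flow sorting, both kinds were pooled in equal proportion, and a Chromium 3′ library was made of each group. The sources used here do not give how many mice went into a library, nor their age or sex. With 1 library per group, navitoclax, the mouse and the preparation cannot be told apart, no test between groups is possible, and every interval below is a 95% interval that covers counting error only.

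p21 binds and blocks cyclin-dependent kinases, and its gene is a textbook target of the transcription factor p53, which is stabilised when DNA is damaged. Phlda3, another p53 target, encodes a small protein that competes with the kinase AKT for membrane lipids. Lasting p21 expression is one of the features of senescence, a state in which a cell no longer divides and often secretes chemokines, proteases and growth factors. Navitoclax (ABT-263) blocks BCL-2 and its relatives BCL-XL and BCL-W, which protect cells from apoptosis, and is used experimentally to kill senescent cells, and the series addresses how such inhibition acts on endoplasmic reticulum (ER) stress and lung fibrosis.

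The navitoclax library held 98517048 UMIs in 8064 barcodes and the vehicle library 97958947 UMIs in 8784 barcodes. The high fibroblasts had medians of 8962 UMIs in the navitoclax and 8282 UMIs in the vehicle library, against 8226.5 and 7554 UMIs in the other fibroblasts of the same libraries. Their median mitochondrial share was 3.81% and 3.80%, against 4.17% and 4.19% in the other fibroblasts. Scrublet, a doublet caller, marked 0.638% of the high fibroblasts of the navitoclax and 0.593% of those of the vehicle library, against 1.45% and 1.60% of the other fibroblasts. The libraries shared 20 barcode sequences, none of them among the high fibroblasts.

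The level of the selecting pair was a continuum and not a separate peak. In the navitoclax library the high fibroblasts ran from 10.0 to 68.8 pair UMIs per 10000 with a median of 16.3, and the other fibroblasts had a median of 2.41. In the vehicle library the high fibroblasts ran from 10.0 to 67.9 with a median of 17.3, and the other fibroblasts again had a median of 2.41. Cells lay about as densely just inside as just outside the threshold. Between 10 and 11 per 10000 there were 48 navitoclax and 49 vehicle cells, and between 9 and 10 there were 56 navitoclax and 49 vehicle cells. Those just inside had medians of 10 pair UMIs in the navitoclax and 8 in the vehicle library, and those just outside 9 and 8.

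**Figure D1:**
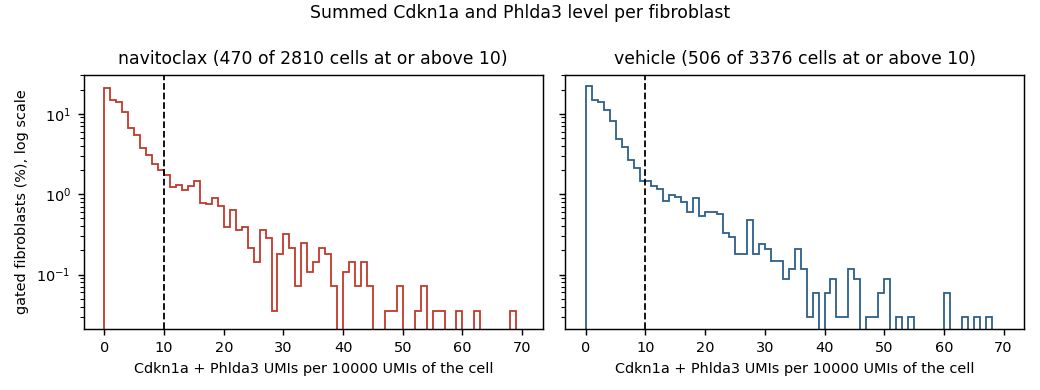
Distribution of the summed Cdkn1a and Phlda3 level, in UMIs per 10000 UMIs of the cell (x axis), over gated fibroblasts of the navitoclax library (left) and the vehicle library (right), as a percentage of gated fibroblasts on a log scale (y axis). The dashed line is the threshold of 10; the curves fall without a second peak, and 470 of 2810 navitoclax and 506 of 3376 vehicle cells lie at or above it.

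Most high fibroblasts carried both genes. A UMI of each was present in 92.6% (89.8 to 94.8) of the navitoclax and 92.3% (89.6 to 94.5) of the vehicle cells. Cdkn1a alone reached 10 per 10000 in 53.8% and 56.9% of them, and Phlda3 alone in 22.1% and 25.1%. The pair rested on at least 10 UMIs in 77.0% of the navitoclax and 74.3% of the vehicle cells, and on 1 or 2 UMIs in 3.19% and 1.78%. Both genes therefore contributed, Cdkn1a more often by itself than Phlda3.

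The genes also went together when only one of them chose the cells. In fibroblasts with at least 10 Cdkn1a UMIs per 10000, Phlda3 was at 677 CPM (counts per 1000000 UMIs, summed over cells) in the navitoclax and 737 CPM in the vehicle library, against 275 and 273 CPM in the remaining fibroblasts, 2.46-fold (2.33 to 2.59) and 2.70-fold (2.56 to 2.84) higher. In fibroblasts chosen by Phlda3 alone, Cdkn1a was at 1498 CPM in the navitoclax and 1370 CPM in the vehicle library, against 246 and 203 CPM in the remaining fibroblasts, 6.10-fold (5.74 to 6.49) and 6.77-fold (6.36 to 7.20) higher. Cdkn1a (chr17:29090976-29100727, plus strand, GRCm38) and Phlda3 (chr1:135766119-135769136, plus strand) lie on different chromosomes.

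The share of high cells among gated fibroblasts was 16.7% (15.4 to 18.2) in the navitoclax library and 15.0% (13.8 to 16.2) in the vehicle library. They differed by 1.74 percentage points, with an interval from −0.09 to 3.58 that includes 0. By depth, the interval of the difference included 0 in every bin. Among cells under 2000 UMIs the share was 15.0% in the navitoclax and 13.4% in the vehicle library. With 2000 to 5000 UMIs it was 12.9% and 13.8%, a difference of −0.91 points (−5.02 to 3.41). With 5000 to 10000 UMIs it was 16.5% and 14.4%, and among deeper cells 18.9% and 17.1%. The size of the difference moved with the rule. It was 3.48 points (1.16 to 5.81) with a threshold of 5 per 10000 and 2.38 points (0.195 to 4.58) after thinning. Among all cells with at least 5000 UMIs it was 2.22 points (0.142 to 4.31). With a mitochondrial limit of 10% it was 2.01 points (0.152 to 3.89). It was −0.05 points with a threshold of 20 per 10000, 0.47 points with Cdkn1a alone and −0.06 points with Phlda3 alone, each with an interval that includes 0. The interval also included 0 with at least 3 pair UMIs (1.47 points), a UMI of both genes (1.65 points) and a mitochondrial limit of 5% (1.62 points). The same held without doublets (1.72 points) and without cells rich in epithelial (1.85 points) or smooth muscle transcripts (1.31 points).

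High cells were found in each of 3 overlapping sets of fibroblasts rich in markers of a lung niche. Of fibroblasts rich in Inmt, Npnt and Ces1d, genes of alveolar fibroblasts, 17.1% (15.6 to 18.6) were high in the navitoclax and 14.7% in the vehicle library, a difference of 2.34 points (0.413 to 4.29). Of those rich in Pi16, Clec3b and Mfap5, genes of the adventitial fibroblasts around vessels and airways, 16.3% were high in the navitoclax and 14.5% in the vehicle library, a difference of 1.85 points (−0.18 to 3.90). Of those rich in Hhip and Aspn, genes of peribronchial fibroblasts, the shares were 16.1% and 16.8%, a difference of −0.62 points (−5.83 to 4.55). These sets overlap, since rich means at least 5 UMIs of the named genes per 10000, and the interval of the difference included 0 in the last 2 of the 3.

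Most fibroblasts passed the alveolar and adventitial thresholds, so these sets do not separate the niches. The sets were compared by share and the markers by level. The Inmt, Npnt and Ces1d set took in 89.4% of the high fibroblasts in the navitoclax and 90.7% in the vehicle library, against 87.2% and 92.6% of the other fibroblasts. The Pi16, Clec3b and Mfap5 set took in 77.4% and 76.5%, against 79.6% and 79.5% of the other fibroblasts. The Hhip and Aspn set took in 14.0% and 12.6%, against 14.7% and 11.1%. The 8 adventitial markers summed to 1839 CPM in the high fibroblasts of the navitoclax and 2128 CPM in those of the vehicle library, against 2447 and 2310 CPM in the other fibroblasts. The 8 alveolar markers summed to 8789 and 10151 CPM, against 9429 and 11592 CPM, and the 6 peribronchial markers to 478 and 408 CPM, against 606 and 417 CPM. All of these sums were lower in the high than in the other fibroblasts. Cells outside the gate also reached the level of the pair. Among cells with mesothelial markers, which line the lung surface, 10 of 39 navitoclax and 17 of 69 vehicle cells did, and among cells with at least 2 UMIs of Cthrc1, a gene of fibrotic fibroblasts, 3 of 12 and 2 of 27. Of Epcam-positive epithelial cells, 3.46% (2.75 to 4.29) in the navitoclax and 4.95% (4.10 to 5.92) in the vehicle library reached it.

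The gate itself asked for collagen UMIs. The 9 pan-fibroblast markers, none of them a gene of the gate, were all at 20 CPM or more in the high cells of both libraries. Their summed level was 53345 CPM in the high fibroblasts of the navitoclax and 49718 CPM in those of the vehicle library, against 66534 and 57491 CPM in the other fibroblasts. Among endothelial, pericyte and immune markers some were at 0 and the rest had UMIs. Of 7 endothelial markers, 1 was at 20 CPM or more in the high fibroblasts of each library, and Cdh5, Cldn5, Vwf and Tie1 had 0 UMIs in both. The summed level was 29.2 and 26.0 CPM, against 42.9 and 34.0 CPM. Of 7 pericyte markers, 2 in the navitoclax and 1 in the vehicle library were at 20 CPM or more, and Trpc6 and Higd1b were at 0. The summed level was 115 and 104 CPM in the high fibroblasts, slightly above the 109 and 98.1 CPM of the other fibroblasts. Of 9 immune markers, 3 were at 0 in the navitoclax and 5 in the vehicle library, and nearly all of the summed 396 and 399 CPM came from Lyz2, which type II alveolar cells also express. The 9 epithelial markers summed to 2694 and 3600 CPM, against 8683 and 8653 CPM in the other fibroblasts. Sftpc, a surfactant gene of type II cells singled out after its values had been seen, had UMIs in every one of the 470 navitoclax and 506 vehicle high fibroblasts, at 2074 and 2724 CPM.

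Ccl2, the monocyte-attracting chemokine named with Cdkn1a and Phlda3 as a mark of these cells, did not mark most of them. Its UMIs came from 15 of the 470 navitoclax and 14 of the 506 vehicle high fibroblasts. A single cell held 67 of the 161 navitoclax UMIs, and another 108 of the 273 vehicle UMIs. The summed level was 35.6 CPM (30.3 to 41.6) in the high and 27.1 CPM in the other fibroblasts of the navitoclax library, and 63.4 CPM (56.1 to 71.3) in the high and 10.8 CPM in the other fibroblasts of the vehicle library. With every cell thinned to 2000 UMIs, a Ccl2 UMI was seen in 1.11% (0.361 to 2.57) of the high and 1.12% (0.726 to 1.65) of the other fibroblasts of the navitoclax library, and in 1.83% (0.842 to 3.45) and 0.685% (0.413 to 1.07) in the vehicle library. Without thinning the shares were 3.19% in the high and 1.97% in the other fibroblasts of the navitoclax library, and 2.77% and 1.08% in the vehicle library. In Foxj1-positive epithelial cells, which are ciliated and with median depths of 13970.5 and 11969 UMIs, 1 of 435 thinned navitoclax and 0 of 337 thinned vehicle cells had one, and 0 of 337 allows a share of up to 0.890%. Thinning left out 19 high and 108 other fibroblasts of the navitoclax library and 15 and 97 of the vehicle library.

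Other genes of the p53 pathway had the highest median of the 23 gene lists in both libraries. A list of 30 such genes, none of which entered the selection, had 29 members with at least 20 UMIs in both libraries. Of these, 17 (58.6%) were at least 1.5-fold higher in the high than in the other fibroblasts of both libraries, on a scale of log2(CPM + 5), and 0 were lower by as much. Over all 12591 genes measured, 0.492% were higher and 0.477% lower by this rule. Within the navitoclax library alone 18 members were higher and 0 lower, against 0.788% and 1.04% of all genes, and within the vehicle library 17 and 0, against 0.94% and 0.66%. The list's median log2 ratio was 0.75 in the navitoclax and 1.09 in the vehicle library, against 0.06 and 0.05 over all genes. The vehicle median was 0.61 with a threshold of 5 per 10000 and 0.65 after thinning, and the navitoclax median was 1.31 with 1 CPM added in place of 5. Cells are not replicates, and the list was chosen with earlier results of these data known. These values therefore describe the 2 libraries and carry no test.

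Cdkn1a and several members of the list hold a p53 motif near a transcription start. Windows of 300 bases, 250 before and 50 after the start, were taken from RefSeq (GRCm38.p6) and searched for 2 adjoining copies of the p53 decamer consensus, a palindrome that reads the same on both strands, with no spacer and at most 3 mismatches in 20 bases. The fixed C and the fixed G of each decamer had to match, so mismatches were allowed only at the other bases. Of 27025 genes with a window 1.63% held such a site, and of the 23 list members with a window 7 did (30.4%), namely Aen, Bbc3, Ccng1, Ckap2, Sesn1, Tigar and Trp53. A match is a description of these letters and no evidence of binding. Of Cdkn1a (chr17:29090729-29091028, plus strand) and Ccng1 (chr11:40755237-40755536, minus strand), whose sites have 1 mismatch each, the whole window is shown with the site in capitals, and so it is of Rps27l (chr9:66946163-66946462, plus strand), a ribosomal protein paralog that was added after its values had been seen.
Cdkn1a: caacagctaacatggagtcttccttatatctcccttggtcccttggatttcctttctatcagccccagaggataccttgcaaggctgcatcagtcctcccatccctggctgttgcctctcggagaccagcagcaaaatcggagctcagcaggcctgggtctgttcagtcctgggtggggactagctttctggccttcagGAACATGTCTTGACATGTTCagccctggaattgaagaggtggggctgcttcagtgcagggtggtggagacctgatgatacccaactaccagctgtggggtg
Ccng1: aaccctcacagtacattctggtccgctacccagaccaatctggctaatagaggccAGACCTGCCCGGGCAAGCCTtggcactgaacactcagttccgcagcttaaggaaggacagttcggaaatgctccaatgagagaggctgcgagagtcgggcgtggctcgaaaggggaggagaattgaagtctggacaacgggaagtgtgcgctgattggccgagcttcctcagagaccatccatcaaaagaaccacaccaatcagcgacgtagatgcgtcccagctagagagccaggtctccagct
Rps27l: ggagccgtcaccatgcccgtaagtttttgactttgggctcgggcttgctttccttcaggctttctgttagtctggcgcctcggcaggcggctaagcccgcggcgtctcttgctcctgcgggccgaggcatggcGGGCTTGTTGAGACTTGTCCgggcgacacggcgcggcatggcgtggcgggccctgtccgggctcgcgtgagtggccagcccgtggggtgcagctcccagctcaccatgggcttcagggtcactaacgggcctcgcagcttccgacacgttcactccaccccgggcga
The Cdkn1a site lies 51 bases before the start, the Ccng1 site 195 and the Rps27l site 117, although GENCODE places the start of Rps27l further upstream, so that its site lies within the gene. Aen, Bbc3, Ccng1 and Ckap2, of the 7 list members with a site, were 1.5-fold higher in both libraries, and Sesn1, Tigar and Trp53 were not. The sites of 4 further list members, with 2 mismatches in Ckap2 and 3 in the others, show how far the sequence varies.
Aen: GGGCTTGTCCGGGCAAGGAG
Bbc3: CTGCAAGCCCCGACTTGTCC
Ckap2: AGACATGTCCTGACTTGTCA
Sesn1: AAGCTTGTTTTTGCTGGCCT
The Phlda3 window (chr1:135765835-135766134, plus strand) held neither such a site nor a single exact decamer. An exact single decamer was present in 9.55% of all genes with a window and in 9 of the 23 list members (39.1%), Mdm2 and Bax among them.

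Among the genes that control p53 itself, Mdm2, which encodes the ubiquitin ligase that degrades it, was at 137 CPM in the high and 37.6 CPM in the other fibroblasts of the navitoclax library, 3.64-fold (3.27 to 4.06) higher. In the vehicle library Mdm2 was at 124 CPM in the high and 33.5 CPM in the other fibroblasts, 3.69-fold higher. Trp53, the p53 gene itself, was at 69.9 CPM in the high and 47.2 CPM in the other fibroblasts of the navitoclax library and at 55.9 and 45.7 CPM in the vehicle library, 1.48-fold and 1.22-fold higher, so that the transcript of the factor differed less than that of its regulator. Trp53inp1, a nuclear cofactor of p53, was 2.93-fold and 2.86-fold higher, and Zmat3, an RNA-binding zinc finger protein, 3.56-fold and 3.70-fold.

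Psrc1, Ckap2 and Ccng1, which act at the mitotic spindle or in the cell cycle, were 1.5-fold higher in both libraries, and Btg2, Plk2 and Plk3 were not. Psrc1, which encodes a microtubule-binding protein, was at 31.0 CPM in the high and 2.27 CPM in the other fibroblasts of the navitoclax library, and at 31.3 and 1.38 CPM in the vehicle library, 13.7-fold (9.75 to 19.4) and 22.7-fold (15.3 to 34.5) higher. Its UMIs came from 87 navitoclax and 85 vehicle high fibroblasts, and no cell held more than 6. Ckap2, another spindle protein gene, had few UMIs, 30 in the navitoclax and 48 in the vehicle high fibroblasts, and 1 vehicle cell held 13 of the 48. In the other fibroblasts of the navitoclax library 1 cell held 18 of 26. Without such cells the ratio was 15.5 (6.85 to 39.5) in the navitoclax and 21.0 (9.87 to 49.6) in the vehicle library, against 5.29 and 25.8 with them. Ccng1, which encodes cyclin G1, was 2.82-fold (96.9 against 34.3 CPM) and 2.66-fold (82.9 against 31.2 CPM) higher. Btg2, an antiproliferative gene that is also an immediate-early gene, reached 1.44-fold and 1.34-fold, and Plk2 and Plk3, polo-like kinases, stayed under 1.5-fold.

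Genes of cell death formed the third set. Bax, which encodes a protein that permeabilises mitochondria, was at 262 CPM in the high and 104 CPM in the other fibroblasts of the navitoclax library and at 259 and 102 CPM in the vehicle library, 2.51-fold (2.34 to 2.70) and 2.53-fold higher. Bbc3, which encodes the BH3-only protein PUMA, was 2.79-fold and 2.56-fold higher, and Aen, an apoptosis-enhancing nuclease, 4.11-fold and 3.82-fold. Eda2r, a receptor of the tumour necrosis factor family on the X chromosome, was at 35.2 CPM in the high and 4.24 CPM in the other fibroblasts of the navitoclax library and at 29.0 and 3.89 CPM in the vehicle library, 8.29-fold (6.35 to 10.9) and 7.46-fold higher. Tnfrsf10b, a death receptor, was higher at a low level of 5.75 and 3.02 CPM, against 1.40 and 0.302 CPM. The death receptor gene Fas was 1.28-fold and 1.26-fold higher, and Pmaip1, which encodes NOXA, had 2 UMIs in the navitoclax and 1 in the vehicle high fibroblasts and was too low to measure.

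Gdf15, a secreted stress cytokine of the TGFβ family, was at 78.1 CPM in the high and 7.33 CPM in the other fibroblasts of the navitoclax library, 10.7-fold (8.78 to 13) higher. In the vehicle library it was at 58.7 CPM in the high and 4.92 CPM in the other fibroblasts, 11.9-fold (9.52 to 15.0) higher. Its UMIs were spread over 99 navitoclax and 87 vehicle cells. After thinning to 2000 UMIs, a Gdf15 UMI was seen in 8.20% (5.84 to 11.1) of the high and 1.57% (1.09 to 2.17) of the other fibroblasts of the navitoclax library and in 7.94% (5.71 to 10.7) and 0.793% (0.498 to 1.20) in the vehicle library, against 1.61% of navitoclax and 0.297% of vehicle Foxj1-positive cells. Unthinned, 21.1% of the high and 4.02% of the other fibroblasts of the navitoclax library had one, and 17.2% and 2.61% in the vehicle library. Most high fibroblasts therefore had no Gdf15 UMI at the depth reached.

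Metabolic and repair genes were mixed. Sesn2, a stress-induced inhibitor of mTOR signalling, was 4.65-fold and 4.48-fold higher at 17.0 and 15.1 CPM, whereas its relative Sesn1 was at 0.87 and 1.01 times the level of the other fibroblasts. Ephx1, the microsomal epoxide hydrolase, was 2.49-fold and 3.17-fold and Sulf2, a heparan sulfate sulfatase, 2.63-fold and 3.23-fold higher. Polk, a translesion DNA polymerase gene, was higher at 10.8 and 8.59 CPM, against 4.82 and 3.28 CPM. Xpc, of nucleotide excision repair, Rrm2b, a ribonucleotide reductase subunit, Tigar, Perp and Epha2 did not reach 1.5-fold in either direction in both libraries. Perp, Epha2 and Tigar had 15 UMIs or fewer in the high fibroblasts of each library.

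**Figure D2:**
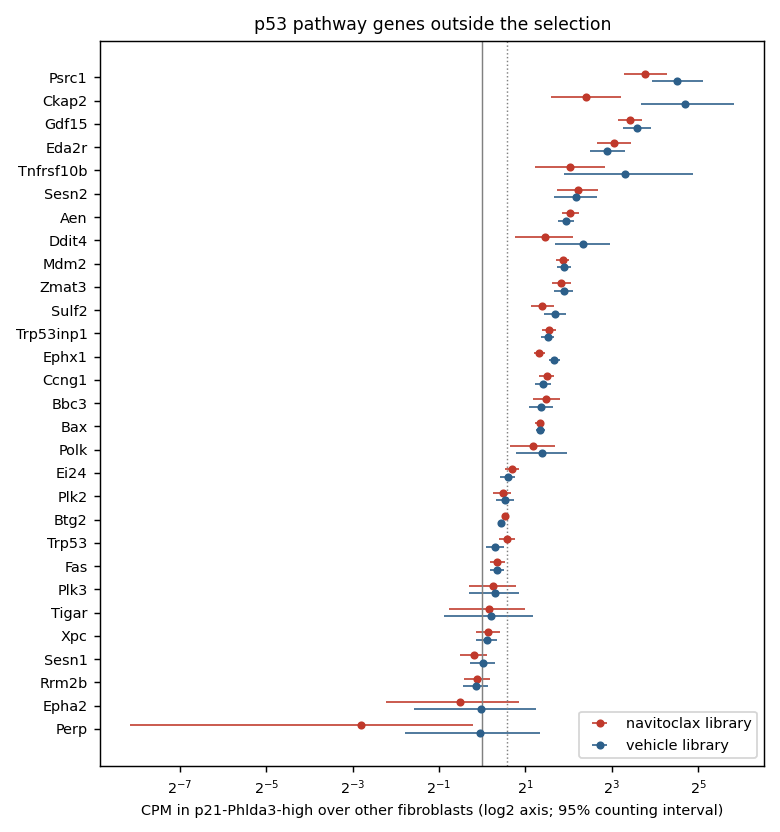
CPM in the high over the other fibroblasts (x axis, log2 scale) for the 29 measured p53 pathway genes (y axis, ordered by ratio), in the navitoclax library (red) and the vehicle library (blue), with bars for 95% counting intervals. The solid line marks equal levels and the dotted line 1.5-fold; the genes at the top are Psrc1, Ckap2, Gdf15, Eda2r and Tnfrsf10b, and Perp, Epha2, Rrm2b and Sesn1 lie at or left of equal levels in at least 1 library.

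Above the threshold the pathway's level went with the level of the pair. The summed level of the 30 genes was 1664, 1517 and 1584 CPM in navitoclax fibroblasts with 0, above 0 to 2.5 and 2.5 to 5 pair UMIs per 10000, and 1877 CPM from 5 to 10. Above the threshold it was 2560 CPM from 10 to 20, 3558 CPM from 20 to 40 and 4875 CPM (4604 to 5158) in the 27 cells at 40 or more. In the vehicle library the values below the threshold were 1683, 1605, 1612 and 1827 CPM, and above it 2544, 3301 and 4633 CPM (4351 to 4928), the last in 28 cells. The level was thus nearly flat up to 5 per 10000 and higher in each further bin in both libraries. Mdm2 followed the same order in the navitoclax library above the threshold, with 96.5, 168 and 480 CPM, and in the vehicle library, with 76.3, 179 and 359 CPM. Cells without a UMI of the pair were shallower, with median depths of 4841 navitoclax and 5305 vehicle UMIs, against 7228 to 9549 UMIs in the other bins; the part of depth in these values was not tested.

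**Figure D3:**
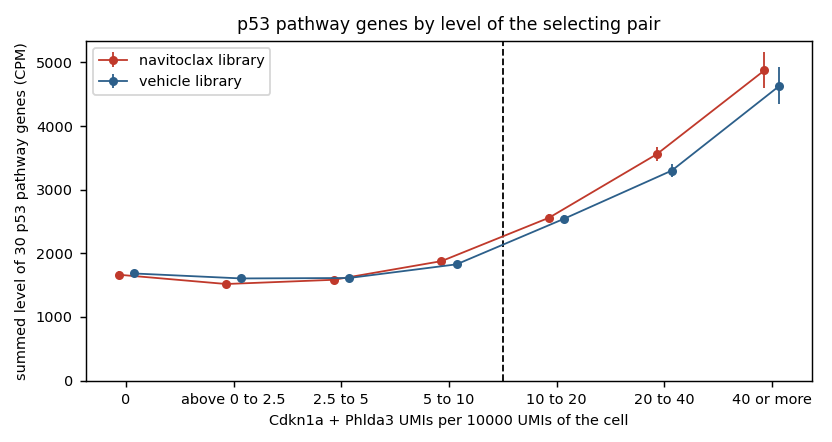
Summed level of 30 p53 pathway genes, in CPM (y axis), by the level of Cdkn1a and Phlda3 in UMIs per 10000 (x axis, 7 bins), in gated fibroblasts of the navitoclax library (red) and the vehicle library (blue), with 95% counting intervals. The dashed line is the threshold; values run from 1517 to 1877 CPM to its left and from 2544 to 4875 CPM to its right.

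Of the 15 genes named as highest in the high fibroblasts, 12 belong to the p53 list, and 3 do not. Both the list and the naming rule were chosen with earlier results of these data known, so this overlap is a description. Tmem178, a transmembrane protein gene, was 2.83-fold (77.0 against 27.1 CPM) and 2.70-fold (70.1 against 26.0 CPM) higher. Abhd11os, a noncoding transcript from the strand opposite to Abhd11, was 2.80-fold and 3.13-fold higher, and Hist1h4h, a histone H4 gene, 3.23-fold and 3.89-fold. Histone H4 genes are near-identical copies, and the sources used here do not say whether counting used strand, so the counts of both are uncertain. Rps27l and the unnamed gene model Gm26870 were picked out after their values had been seen. Rps27l, whose window is shown above, was at 690 CPM in the high and 329 CPM in the other fibroblasts of the navitoclax library, 2.10-fold higher, and at 721 and 304 CPM in the vehicle library, 2.37-fold higher. Gm26870 was 3.85-fold and 4.82-fold higher, from 146 navitoclax and 126 vehicle cells.

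Beyond the p53 pathway, the regulators of senescence showed little difference. Of 13 listed regulators, 10 were measured and 0 were 1.5-fold higher or lower in both libraries, with medians of 0.08 in the navitoclax and 0.12 in the vehicle library. Cdkn2a, the source of the senescence marker p16, had 0 UMIs in the high fibroblasts of both libraries and 0.0964 and 0.216 CPM in the other fibroblasts. A count of 0 allows up to 0.663 CPM in the navitoclax and 0.696 CPM in the vehicle library. Lmnb1, the lamin B1 gene that is lost in many senescent cells, was at 4.64 CPM in the high and 3.91 CPM in the other fibroblasts of the navitoclax library and at 6.50 and 3.97 CPM in the vehicle library. Glb1, which encodes lysosomal beta-galactosidase, was at 18.6 CPM in the high and 27.7 CPM in the other fibroblasts of the navitoclax library and at 25.5 and 23.7 CPM in the vehicle library, in opposite order.

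Secreted factors of senescent cells showed no common direction. Of 26 measured in both libraries, 10 were above and 7 below the other fibroblasts in both, 1 was 1.5-fold higher, Gdf15, and 1 was lower, Mmp3, with medians of −0.04 in the navitoclax and 0.11 in the vehicle library. Over all genes, 8372 of 12817 were above the other fibroblasts in the navitoclax and 8043 of 12871 in the vehicle library. Serpine2, a protease inhibitor gene, was 1.64-fold and 1.41-fold higher. Il6, the inflammatory cytokine gene, was at 36.9 CPM in the high and 26.1 CPM in the other fibroblasts of the navitoclax library and at 39.0 and 25.1 CPM in the vehicle library, from 35 and 52 high cells. Without the cell with the most Il6 UMIs in each set, the ratio was 1.20 (0.984 to 1.45) in the navitoclax library. In the vehicle library it was then 1.41 (1.17 to 1.70). Il1a and Il1b had 0 UMIs in the high fibroblasts of both libraries. Mmp3, which encodes stromelysin-1, was 1.67-fold (257 against 431 CPM) and 1.54-fold (208 against 320 CPM) lower. Igfbp5, a binding protein of insulin-like growth factors, was 1.58-fold lower in the navitoclax library and at 217 CPM in both sets of the vehicle library.

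Of 11 chemokine genes measured in both libraries, 0 were 1.5-fold higher and 0 lower in both, with medians of −0.17 and 0.01. Ccl7, another monocyte attractant, was 1.85-fold and 4.35-fold higher, but its UMIs came from 9 navitoclax and 6 vehicle cells. A single vehicle cell held 81 of the 111, and without the cell with the most UMIs in each set the ratio was 1.75 and 1.65. Cxcl1, a neutrophil attractant, was at 19.9 CPM in the high and 39.7 CPM in the other fibroblasts of the navitoclax library and at 40.2 and 25.3 CPM in the vehicle library. Cxcl10, an interferon-induced chemokine, was 2.73-fold and 1.16-fold higher, with 52 of 205 navitoclax UMIs in 1 cell. Cxcl12, which holds leukocytes in tissue, was 1.61-fold and 1.46-fold lower, and Cxcl14 was at 575 CPM in the high and 576 CPM in the other fibroblasts of the navitoclax library and at 463 and 639 CPM in the vehicle library. Targets of NFκB, the factor behind much of this secretion, had medians of 0.21 and 0.25, with 13 of 15 above 0 in both libraries and 0 past 1.5-fold in both. Over all genes, 8372 of 12817 were above 0 in the navitoclax and 8043 of 12871 in the vehicle library.

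Of the proteins that navitoclax binds, 1 had a transcript that differed by over 1.5-fold. Bcl2l1, which encodes BCL-XL, was at 55.3 CPM (48.6 to 62.6) in the high and 31.8 CPM in the other fibroblasts of the navitoclax library, 1.74-fold (1.5 to 2.01) higher. In the vehicle library it was at 54.1 CPM in the high and 32.8 CPM in the other fibroblasts, 1.65-fold (1.42 to 1.91) higher. Bcl2 was at 41.8 CPM in the high and 48.3 CPM in the other fibroblasts of the navitoclax library and at 48.7 and 49.2 CPM in the vehicle library. Bcl2l2, which encodes BCL-W, was at 15.9 CPM in the high and 16.3 CPM in the other fibroblasts of the navitoclax library and at 12.5 and 12.8 CPM in the vehicle library. Mcl1, which encodes an anti-apoptotic protein outside the drug's range, was 1.14-fold and 1.19-fold higher at 342 and 343 CPM. On the pro-apoptotic side, Bax and Bbc3 passed 1.5-fold in both libraries, 2 of 9 measured genes, against 0.492% of all genes. Bcl2l11, the BIM gene, was 1.60-fold (26.3 against 16.5 CPM) and 1.62-fold (33.9 against 21.0 CPM) higher but below 1.5-fold with 5 CPM added to each level.

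Top2a and Mki67, genes of dividing cells, were found in few high fibroblasts, and single cells weighed on the totals of Top2a. Of 15 cell cycle genes measured in both libraries, Top2a was 1.5-fold higher in both, with 22 navitoclax and 23 vehicle UMIs. They came from 2 and 5 cells, and single cells held 20 and 18 of them. Mki67 had 5 UMIs in 1 navitoclax cell and 16 UMIs in 2 vehicle cells. The median of the list was 0.10 in the navitoclax and 0.30 in the vehicle library, and its summed level was 1.23-fold (1.11 to 1.35) and 1.61-fold (1.47 to 1.76) higher. Within the navitoclax library alone 1 of 15 genes was 1.5-fold higher, against 0.788% of all genes. Within the vehicle library alone 5 of 16 were, against 0.94%, and 0 were lower by as much in either library. Ccnd2, which encodes cyclin D2, was at 187 CPM in the high and 112 CPM in the other fibroblasts of the navitoclax library and at 147 and 108 CPM in the vehicle library, 1.67-fold and 1.37-fold higher.

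Most contractile genes were lower in the high fibroblasts, and so was the summed level of smooth muscle markers, most of which are the same genes. Of 11 contractile genes, 7 were 1.5-fold lower in both libraries, against 0.477% of all genes, namely Acta2, Tagln, Myl9, Cnn1, Actg2, Myh11 and Lmod1, with medians of −0.76 and −0.75. Acta2, the smooth muscle actin of myofibroblasts, was at 169 CPM in the high and 356 CPM in the other fibroblasts of the navitoclax library and at 64.1 and 225 CPM in the vehicle library, 2.11-fold (1.96 to 2.27) and 3.5-fold (3.10 to 3.97) lower. Myl9, a myosin light chain gene, was 1.96-fold and 2.27-fold lower, and Myh11, the smooth muscle myosin, 7.40-fold and 6.93-fold. The 6 smooth muscle markers summed to 144 and 102 CPM in the high fibroblasts, against 203 and 171 CPM in the other fibroblasts, with none at 0. All of them but Actc1 are also on the contractile list. Des, one of them, did not go lower in both libraries. Without the cell with the most Des UMIs in each set, its ratio was 1.10 (1.00 to 1.21) in the navitoclax and 0.869 (0.772 to 0.976) in the vehicle library. When all cells with at least 2 UMIs of Myh11, Actg2, Cnn1 and Des together per 10000 were left out, an alternative added after the values were seen, the log2 ratio of Acta2 was 0.78 in the navitoclax and −0.31 in the vehicle library, and that of Tagln 0.012 and −0.65. All of these filter genes are on the contractile list, so the list was not read again on the cells that remained.

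Matrix genes were slightly lower as a group. Of 26 outside the selection, 19 were below the level of the other fibroblasts in both libraries, with medians of −0.11 in the navitoclax and −0.17 in the vehicle library, and 1, Postn, was 1.5-fold lower in both. Over all genes, 4445 of 12817 were below that level in the navitoclax and 4828 of 12871 in the vehicle library. Postn, which encodes periostin, was at 3.54 CPM in the high and 10.9 CPM in the other fibroblasts of the navitoclax library and at 2.32 and 10.6 CPM in the vehicle library. Eln, the elastin gene, was 1.41-fold and 1.34-fold lower at 1865 and 1936 CPM. Fn1, which encodes fibronectin, was 1.05-fold higher in the navitoclax library and at 0.84 times the level of the other fibroblasts in the vehicle library. TGFβ response genes had medians of −0.05 and −0.20, with Postn, Acta2 and Tagln lower in both libraries and Ctgf, a matricellular gene, 1.54-fold and 1.44-fold lower.

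Further genes named as lowest were Colq, which encodes the collagen tail of acetylcholinesterase, 1.56-fold and 1.79-fold lower, the transcription factor gene Ebf1 at 3.25-fold and 1.61-fold, the carboxypeptidase gene Cpz at 2.94-fold and 1.63-fold, and the complement gene C2 at 1.78-fold and 1.49-fold. Ebf1 rested on 20 navitoclax and 33 vehicle high cells. Of all 12591 genes, 60 were 1.5-fold lower in both libraries. Their number was 17 when Scrublet doublets were removed, and 17 when cells with over 2% of UMIs from 4 surfactant and club cell genes were left out. Such cells made up 0.213% of the high fibroblasts in the navitoclax and 0.791% in the vehicle library, against 2.14% and 2.02% of the other fibroblasts. The number of higher genes was 63 in both of these settings.

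Of the immediate-early, heat shock and ER stress lists, that of PERK targets was the only one with members 1.5-fold higher in both libraries. Immediate-early genes had medians of 0.15 and 0.31, with 15 of 20 above 0 in both libraries and Atf3, a stress-induced transcription factor, at 1.29-fold and 1.56-fold. Over all genes, 8372 of 12817 were above 0 in the navitoclax and 8043 of 12871 in the vehicle library. Heat shock genes had medians of 0.19 and 0.15. Among targets of the ER stress sensor PERK, 3 of 18 were 1.5-fold higher in both libraries, Trib3, Sesn2 and Ddit4, against 0.492% of all genes. Sesn2 and Ddit4 also stand in the p53 list. Trib3, a pseudokinase gene, was at 7.52 CPM in the high and 1.98 CPM in the other fibroblasts of the navitoclax library and at 5.34 and 1.77 CPM in the vehicle library. Ddit3, which encodes CHOP, was 1.56-fold and 1.38-fold higher. Targets of ATF6 had medians of 0.02 and 0.05 and those of IRE1 and XBP1 0.04 and −0.01, with 0 of 12 and 0 of 15 past 1.5-fold.

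The remaining lists had 0 members past 1.5-fold in both libraries. The medians were 0.06 and 0.07 for NRF2 antioxidant genes, 0.04 and 0.14 for metallothioneins and glucocorticoid-responsive genes, 0.14 and −0.02 for interferon-stimulated genes, and 0.02 and −0.01 for MHC class I genes. They were 0.01 and −0.01 for niche growth factors, 0.08 and 0.12 for D cyclins and G1 kinases, and 0.09 and 0.17 for nuclear noncoding RNAs. Tap1, the peptide transporter of MHC class I and a known p53 target, was 1.57-fold higher in either library at 27.9 and 25.5 CPM, but below 1.5-fold with 5 CPM added to each level, the scale of these counts.

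**Figure D4:**
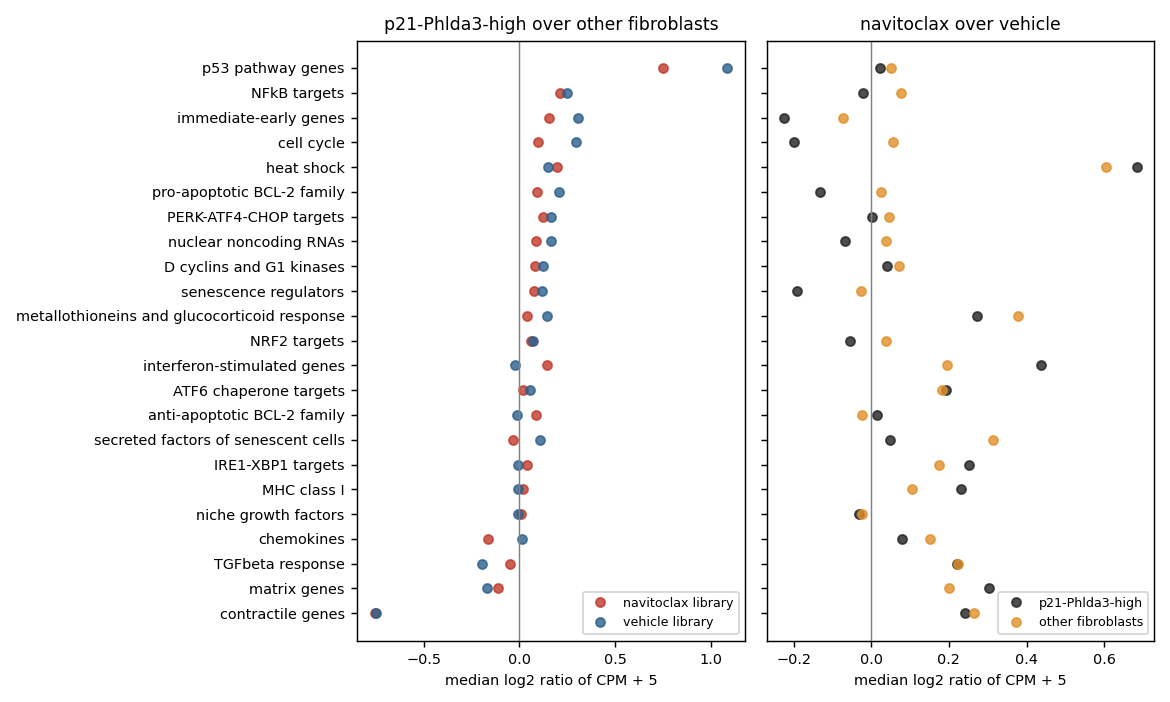
Median log2 ratio of CPM + 5 over the measured genes of 23 lists (x axes). The left panel sets the high against the other fibroblasts in the navitoclax (red) and vehicle (blue) libraries, where the p53 pathway genes lie at 0.75 and 1.09 and the contractile genes at −0.76 and −0.75; the right panel sets the navitoclax against the vehicle library in the high (black) and other (orange) fibroblasts, where heat shock genes lie at 0.68 and 0.61.

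Between the treatments, no measured p53 pathway gene outside the selection passed 1.5-fold. Levels of the selecting pair are a description, since the same threshold was set in both libraries. The p53 pathway genes went with the level of the pair above that threshold, so their ratios are no separate measure of treatment. How far the shared threshold set these ratios was not tested. Cdkn1a was at 1253 CPM (1221 to 1286) in the navitoclax and 1252 CPM (1219 to 1286) in the vehicle high fibroblasts, and Phlda3 at 695 CPM and 730 CPM. Of 27 measured p53 pathway genes, 0 were 1.5-fold higher and 0 lower in the navitoclax library, against 0.832% and 0.797% of the 11419 genes measured in the high fibroblasts. The list's median log2 ratio was 0.02, against 0.01 over all genes. Gdf15 was 1.33-fold (1.13 to 1.57) higher in the navitoclax than in the vehicle high fibroblasts, and 1.49-fold higher in the other fibroblasts. The ratio was 1.01 for Bax (262 against 259 CPM), 0.99 for Psrc1 (31.0 against 31.3 CPM), 1.02 for Bcl2l1 (55.3 against 54.1 CPM) and 1.11 (0.98 to 1.24) for Mdm2 (137 against 124 CPM), and each of these intervals included 1.

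Of the 23 lists, heat shock genes had the highest median between the treatments. In the high fibroblasts 7 of 13 were 1.5-fold higher in the navitoclax library, against 0.832% of all genes (0.797% were lower). Their median was 0.68, and 13 of 13 were above 0, against 5855 of 11419 over all genes. In the other fibroblasts 8 of 13 were 1.5-fold higher, against 0.354% of all genes there (0.221% were lower), with a median of 0.61. Hspa1b was at 421 CPM in the navitoclax and 31.1 CPM in the vehicle high fibroblasts, 13.5-fold (11.4 to 16.3) higher, and Hspa1a at 876 and 96.3 CPM, 9.10-fold (8.22 to 10.1) higher. Both encode the inducible Hsp70 from near-identical copies, so the split of counts between them is uncertain. In the other fibroblasts they were 14.5-fold and 9.69-fold higher. Dnajb1, a co-chaperone of Hsp70, was 4.18-fold (3.66 to 4.78) higher in the high and 3.11-fold in the other fibroblasts, and Hspb1, a small heat shock protein gene, 2.16-fold and 1.89-fold.

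Acta2 and Tagln, lower in the high than in the other fibroblasts, were higher in the navitoclax than in the vehicle high fibroblasts, 2.63-fold (2.29 to 3.03) and 2.16-fold (1.96 to 2.38), against 1.58-fold and 1.59-fold in the other fibroblasts. Acta2 UMIs came from 117 navitoclax and 95 vehicle cells, and 1 navitoclax cell held 138 of the 763. Timp1, a metalloproteinase inhibitor gene, was 1.93-fold higher, with 123 of 863 navitoclax UMIs in 1 cell. Without the cell with the most Timp1 UMIs in each set, it was 1.76-fold (1.56 to 1.99) higher in the high and 1.79-fold (1.70 to 1.87) in the other fibroblasts. Sgk1, a kinase gene induced by glucocorticoids, was 2.11-fold and Rsrp1, which encodes an arginine- and serine-rich protein, 1.88-fold higher, as in the other fibroblasts, at 2.21-fold and 1.81-fold. Saa3 and Hp, acute-phase genes, were 10.7-fold and 1.91-fold higher. Saa3 rested on 5 navitoclax and 4 vehicle cells, with 171 of 326 navitoclax UMIs in 1 cell. Without the cell with the most Saa3 UMIs in each set, it was 12.3-fold (6.83 to 24.3) higher in the high and 3.90-fold (3.10 to 4.93) in the other fibroblasts. Matrix genes as a list had a median of 0.30 in the high and 0.20 in the other fibroblasts, and TGFβ response genes 0.22 in both.

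Genes at lower levels in the navitoclax high fibroblasts were of several kinds. Erdr1 was at 95.5 CPM in the navitoclax and 210 CPM in the vehicle high fibroblasts, 2.20-fold lower, and 2.48-fold lower in the other fibroblasts. It lies in the pseudoautosomal region, where its counts are uncertain. The Notch target Hes1 was 1.93-fold (1.78 to 2.10), the thioredoxin inhibitor gene Txnip 1.65-fold, the stress gene Gadd45b 1.62-fold, the kinase gene Pim1 2.07-fold and the histone variant gene H3f3b 1.49-fold lower, and in the other fibroblasts these were lower as well, by 1.58-fold to 2.17-fold. Immediate-early genes had a median of −0.22 in the high and −0.07 in the other fibroblasts, with 16 of 20 below 0 in the high fibroblasts. All 10 measured senescence regulators were below 0 in the high fibroblasts, with a median of −0.19, and 0 passed 1.5-fold. In the other fibroblasts 8 of 11 were below 0, with a median of −0.03. Over all genes, 5564 of 11419 were below 0 in the high and 6849 of 13555 in the other fibroblasts. In the high fibroblasts 0.832% of all genes were 1.5-fold higher and 0.797% lower.

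The other genes named as lower in the navitoclax high fibroblasts were less low, or higher, in the other fibroblasts. Aqp1, a water channel gene, was at 43.3 CPM in the navitoclax and 123 CPM in the vehicle high fibroblasts, 2.83-fold (2.40 to 3.35) lower, and at 43.6 and 49.1 CPM in the other fibroblasts. Pi16, an adventitial marker, was at 110 CPM and 181 CPM, 1.64-fold lower, and at 168 and 171 CPM in the other fibroblasts. Igfbp6, a relative of Igfbp5, was at 748 and 1139 CPM, 1.52-fold lower, and at 767 and 813 CPM in the other fibroblasts. Galnt15, a glycosyltransferase gene, was 1.75-fold lower in the high and 1.33-fold lower in the other fibroblasts. Serpinf1, which encodes the secreted protein PEDF, was at 61.7 CPM in the navitoclax and 115 CPM in the vehicle high fibroblasts, 1.87-fold lower, and at 174 and 164 CPM in the other fibroblasts. Ccl2 was 1.78-fold lower in the high and 2.52-fold higher in the other fibroblasts, from the few cells described above. Pi16 rested on 53 navitoclax and 83 vehicle high cells, and Aqp1 on 47 and 56. The differences between high and other fibroblasts in these treatment ratios were not tested.

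**Figure D5:**
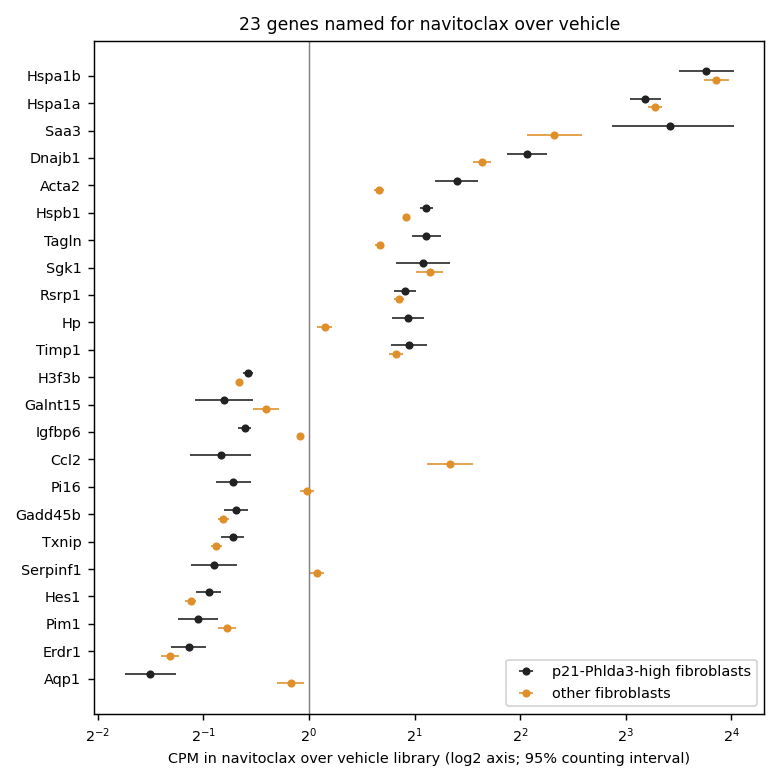
CPM in the navitoclax over the vehicle library (x axis, log2 scale) for 23 genes named for this comparison (y axis), in the high fibroblasts (black) and the other fibroblasts (orange), with 95% counting intervals. The vertical line marks equal levels; Hspa1b lies furthest right in both sets of cells, followed by Saa3 in the high and by Hspa1a in the other fibroblasts, and Ccl2 lies left of the line in the high and right of it in the other fibroblasts.

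Interferon-stimulated genes had a median of 0.44 in the navitoclax over the vehicle high fibroblasts and 0.19 in the other fibroblasts. In the high fibroblasts 3 of 12 genes were 1.5-fold higher, against 0.832% of all genes, and in the other fibroblasts 1 of 13, against 0.354%. Their summed level had the reverse order, 1.38-fold (1.32 to 1.44) higher in the high and 1.44-fold (1.42 to 1.47) higher in the other fibroblasts. A larger difference in the high fibroblasts is thus not shown. Isg15, a ubiquitin-like effector of the interferon response, was at 32.1 CPM in the navitoclax and 17.6 CPM in the vehicle high fibroblasts, with 21 of 145 navitoclax UMIs in 1 cell. Cxcl10 was at 45.3 and 20.0 CPM. Targets of the ER stress sensors were unequal by branch. The medians in the high fibroblasts were 0.19 for ATF6 targets and 0.25 for IRE1 and XBP1 targets, with 11 of 12 and 13 of 15 above 0, and 0.00 for PERK targets, and in the other fibroblasts they were 0.18, 0.17 and 0.05. Over all genes, 5855 of 11419 were above 0 in the high fibroblasts. Hspa5, which encodes the ER chaperone BiP, was 1.31-fold (1.25 to 1.39) higher in the high and 1.38-fold in the other fibroblasts. In each of the 3 ER stress lists 0 genes passed 1.5-fold in the high fibroblasts, against 0.832% higher and 0.797% lower over all genes.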

How the data were processed

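Lung cells of bleomycin-injured mice treated with navitoclax or vehicle were measured in 1 Chromium 3′ library each. The authors deposited matrices of UMI counts per gene and cell, not normalized, produced on mm10, per the submitters' processing notes. Per the file headers, the software was Cell Ranger 4.0.0. The members, gene lists and named-gene rule were chosen with earlier results of these data known. Counts were summed over the cells of each set and divided by the set's total (CPM). Ratios carry conditional exact intervals, levels exact Poisson intervals, shares Clopper-Pearson intervals and differences of shares Newcombe intervals, all at 95% and covering counting error only. Genes with at least 20 UMIs over the sets compared entered lists and counts, on the log2(CPM + 5) scale; with a count of 0, the limit is that of 3 counts.

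Named for the high against the other fibroblasts were the 15 highest and 10 lowest genes by the smaller log2 ratio of the libraries, with at least 50 UMIs and 20 CPM; for navitoclax against vehicle the 12 highest and 12 lowest by the interval bound nearest 1, with at least 100 UMIs and 50 CPM. Unnamed gene models, ribosomal and mitochondrial genes, genes of the gate and genes under 10% of their level in Epcam-positive cells were left out of that ranking, and further members came from the lists. One gene that this rule named is not reported here. One list symbol, Cebpd, matched no gene. Scrublet (scanpy 1.11.5, expected rate 6%) marked doublets, which were kept unless stated. Python 3.11.15, numpy 2.4.6, scipy 1.17.1 and pandas 2.3.3 were used, and the scripts were tested on simulated data. Coordinates of genes are from GENCODE M21 and of promoter windows from RefSeq, both GRCm38. Alternatives changed the thresholds, depth, mitochondrial limit, doublets, weighting, minimum count and pseudocount.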

Additional observations from a re-analysis of the deposited data

Results flagged for a closer look

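Serpinf1, Ccl2 and Spp1 went in opposite directions in the high and the other fibroblasts, or in the libraries. None of these differences was tested. The ratio of navitoclax to vehicle for Serpinf1, an adventitial fibroblast gene, was 0.536 in the high and 1.06 in the other fibroblasts, from 74 navitoclax and 103 vehicle high cells. For Ccl2 it was 0.562 in the high and 2.52 in the other fibroblasts, with 67 of 161 navitoclax and 108 of 273 vehicle UMIs of the high fibroblasts in 1 cell each. For Spp1, which encodes osteopontin, it was 10.5 in the high and 0.435 in the other fibroblasts. The ratio of high to other fibroblasts for Spp1 was 2.80 in the navitoclax library (41.6 against 14.9 CPM) and 0.116 in the vehicle library (3.95 against 34.1 CPM). Its UMIs came from 12 high cells in each library. A single cell held 111 of 188 UMIs in the navitoclax high fibroblasts, and in the other fibroblasts 1 cell held 136 of 308 in the navitoclax and 690 of 790 in the vehicle library. Without the cell with the most Spp1 UMIs in each set, the ratio of navitoclax to vehicle was 5.25 (2.95 to 10.0) in the high and 1.92 (1.49 to 2.48) in the other fibroblasts, in 1 direction. The ratio of high to other fibroblasts was then 2.06 (1.55 to 2.71) in the navitoclax and 0.753 (0.397 to 1.32) in the vehicle library. Ccl2 without such cells was at 0.542 in the high and 2.12 in the other fibroblasts.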

How the results depend on the processing

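No paired analysis was possible because each treatment is 1 library, and for the same reason no replicate could be left out. Leaving out cells rich in epithelial or in smooth muscle transcripts, or the cell with the most UMIs of a gene, was chosen after seeing the data. Over the alternatives the p53 pathway median stayed above 0, from 0.53 to 1.31 in the navitoclax library (main value 0.75; 1.31 with a pseudocount of 1) and from 0.61 to 1.33 in the vehicle library (main value 1.09; 0.61 at 5 per 10000, 0.65 after thinning). The secreted factor median in the navitoclax library was −0.21 with Phlda3 alone (main value −0.04). The navitoclax and vehicle shares were 33.3% and 29.8% at 5 per 10000, 5.52% and 5.57% at 20, 9.0% and 8.53% with Cdkn1a alone, 3.70% and 3.76% with Phlda3 alone, 25.4% and 23.0% after thinning, and 18.7% and 17.1% with a mitochondrial limit of 5%. Genes higher in the high fibroblasts of both libraries numbered 62, but 36 at 5 per 10000, 103 at 20, 113 with Phlda3 alone, 37 after thinning and 114 with a pseudocount of 1. Lower genes numbered 60, but 210 with Phlda3 alone, 17 without doublets, 17 without cells rich in epithelial transcripts, 26 with cells weighted equally and 171 with a pseudocount of 1. Genes past 1.5-fold between the treatments in the high fibroblasts numbered 186, but 103 at 5 per 10000, 646 at 20, 424 with Cdkn1a alone, 888 with Phlda3 alone, 280 with cells weighted equally, 98 with at least 100 UMIs and 733 with a pseudocount of 1. Single values that changed sign follow as log2 ratios. For high against other fibroblasts of the navitoclax library, Spp1 was −0.60 at 20 per 10000, −1.03 with Phlda3 alone and −0.13 with the 5% mitochondrial limit. Ccl2 was −0.25 with Cdkn1a alone, −1.0 with Phlda3 alone, −0.013 after thinning, −0.0178 with at least 5000 UMIs and −0.72 without cells rich in smooth muscle transcripts, where Acta2 was 0.78 and Tagln 0.012. In the vehicle library Ebf1 was 0.0082 with Cdkn1a alone and Ctgf 0.16 with Phlda3 alone. For navitoclax against vehicle, Hp was −0.45 and Spp1 −0.38 with Phlda3 alone, and Ccl2 was 0.044 with cells weighted equally. The cause of these changes was not tested. At the depth reached, genes of a few CPM and shares of rare transcripts rest on few UMIs.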
